A study of Homo sapiens with 72 samples.

Results

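The 32 wells described here are the solvent controls of human skin fibroblasts grown in 384-well format: the 16 DMSO wells of plate column 2 (A2 to P2), near the left edge, and the 16 of plate column 23 (A23 to P23), near the right edge. They were chosen by the well name alone, 32 of the 72 wells of the series, and every gene was compared between the columns. All wells held wildtype normal human dermal fibroblasts, a commercial primary culture, seeded at 1250 cells per well of a 384-well plate and kept for 24 hours with DMSO or with omaveloxolone, an activator of the transcription factor NRF2, at 0.0005 to 10 µM. RNA was read by DRUG-seq, in which the RNA of each well receives its own barcode before the wells are pooled and sequenced from the 3′ end. Both columns carry the DMSO label, although the plate layout in the protocol counts 16 such wells, and whether the columns share 1 plate was not stated. Treated wells lay in rows K and L, and the 24 wells at 0.0005 to 0.12 µM serve here for comparison: 12 in columns 7 to 12 and 12 in columns 17 to 22, with each of the 6 doses on both sides. Wells are replicates of the same cells, so p-values measure the spread between wells only.

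Dermal fibroblasts make and remodel the matrix of the skin: they secrete fibrillar collagens, fibronectin and fibrillin, fold and modify these proteins in the endoplasmic reticulum, and cut and recycle them with proteases and lysosomal enzymes. In multiwell plates, outer wells can differ from inner ones in evaporation, temperature, cell density and dispensing, and controls are placed on both sides so that such differences can be seen. A transcript level in these data is a share of the counts of its well, so that fewer cells of a type and less RNA per cell cannot be told apart.

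The fibroblast markers fitted the label. VIM, the intermediate filament of mesenchymal cells, had a mean of 62043 CPM (library-scaled counts, TMM method) in column 2 and 55661 CPM in column 23, and all 10 fibroblast markers were above a mean of 1 CPM. Of all genes tested 3.3% were called higher in column 23 by edgeR and 2.83% lower. Of the 10 fibroblast markers 6 were called higher and 2, VIM and S100A4, lower. With the log2 total count as a covariate 4 were called higher and 0 lower. Of the markers of other cell types, PTPRC (leukocytes), VWF and KDR (endothelium) and PMEL (melanocytes) had means under 1 CPM in both columns, with KDR and PKP1 at 0. Other markers were well above that: KRT10, a keratin of skin epithelium (467 and 405 CPM, lower in column 23 at a log2 change of -0.20, edgeR adjusted p = 0.017, and 0.588 with the log2 total count as a covariate), CD68, a lysosomal protein of macrophages (125.8 and 138 CPM), and MITF, a regulator of pigment cells (37.0 and 33.4 CPM). DSP, of the keratinocyte list, had means of 19.0 and 14.9 CPM. Summed over the keratinocyte list the wells ran from 407 to 579 CPM in column 2 and from 333 to 530 CPM in column 23, over the melanocyte list from 12.4 to 64.3 and from 15.5 to 54.2 CPM, over the endothelial list from 0 to 5.29 and from 0 to 8.04 CPM, over the leukocyte list from 91.6 to 180.1 and from 114 to 178 CPM, and over the pericyte and smooth muscle list from 3.00 to 26.6 and from 4.68 to 17.7 CPM. The sums hold 4 of 7 keratinocyte, 4 of 6 melanocyte, 5 of 6 endothelial and 4 of 6 leukocyte markers. The other members, KRT5, KRT14 and TYR among them, were not among the genes analysed. The part of these lists in the results was not tested.

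Depth and the share of mitochondrial RNA moved with the column. The total count ran from 4910833 to 7441841 (median 6223684) in column 2 and from 5663945 to 8685531 (median 7175053) in column 23, a mean 1.18 times as high (two-sided permutation test, adjusted p = 0.00026 over 3 measures). Genes with at least 1 count numbered 13603 ± 338 (SD, n = 16) and 14242 ± 345, higher in column 23 in 16 of 16 rows (permutation adjusted p = 4.5e-05). The 13 mRNAs encoded by the mitochondrial genome took 0.817% ± 0.104 of counts in column 2 and 1.09% ± 0.102 in column 23, again higher in 16 of 16 rows (permutation adjusted p = 3e-05). The treated wells showed the same order of medians, with 6129856 counts on the left and 6987872 on the right. Every change below is therefore of shares within wells of unequal depth.

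The columns differed in 691 of 11259 genes tested, 6.14% (edgeR quasi-likelihood test, adjusted p under 0.05): 372 genes, 3.3%, were higher in column 23 and 319, 2.83%, were lower. The rises were the larger, with a median log2 change of 0.55 against -0.22 for the falls. Over both directions 33 called genes changed by over 2-fold, 9 of them with a mean of at least 20 CPM. Column 23 was higher in 16 of 16 rows for 41 of the rises and lower in 16 of 16 for 19 of the falls. The columns overlapped in every gene: 0 of 11259 had all wells of one column above all wells of the other. On the first principal component of 3041 well-expressed genes, which held 17.7% of the variance, 15 wells of column 23 lay on one side of 0 and 15 of column 2 on the other. The exceptions were K23 and O2, where COL1A1 stood at 2740 CPM, the lowest of column 23, and 3905 CPM, the highest of column 2. Their total counts were 6760703 and 7441841, the latter the highest of column 2. Within each column the first component followed the log2 total count (Pearson r = 0.719 in column 2 and 0.674 in column 23, permutation p = 0.0016 and 0.0037). The part of depth in the split between the columns was not tested. The well barcodes of K23 and O2, the designed oligos that identify them among the pooled reads, are printed here because results are given with and without these wells.
K23: tcgactgcatgcga
O2: ccttattgcgttcc
The wells were chosen after the values were seen. Without those 2 wells 831 genes were called, 659 of the 691 among them. With the log2 total count of the well as a covariate 150 of 12853 genes tested were called, 111 higher and 39 lower in column 23. Of the 691 genes, 142 were among them. All 691 kept their sign, at a median of 0.768 times the change without the covariate. The total count itself differed between the columns, so that this model cannot fully tell depth and side apart. Values adjusted for depth come from this model. With counts instead thinned to the lowest total, 670 of 11018 genes were called, 360 higher and 310 lower. In the lists below, 17 matrix genes, 8 endoplasmic reticulum chaperones, 9 lysosomal genes and 4 cholesterol genes were called higher, and 0 lower. Of the ribosomal protein list 18 were called lower and 0 higher. Which approach better removes depth was not tested.

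Matrix genes led the rises. COL1A1, the α1 chain of type I collagen (chromosome 17, 50183289 to 50201632, GRCh38), ran from 1352 to 3905 CPM (median 2363) in column 2 and from 2740 to 6890 CPM (median 4670) in column 23. The ranges overlapped, and column 23 was higher in 15 of 16 rows. The log2 change was 0.93 ± 0.12 (SE; 1.90-fold, edgeR adjusted p = 7.72e-07). FBN1, the fibrillin of elastic microfibrils, ran from 101 to 347 CPM (median 226) and from 274 to 556 CPM (median 407), higher in column 23 in 16 of 16 rows. COL16A1, a collagen associated with other fibrils, had the largest change of the rises named: 7.39 to 30.3 CPM (median 24.9) in column 2 and 23.5 to 88.4 CPM (median 45.8) in column 23, a log2 change of 1.14 ± 0.18 (edgeR adjusted p = 3.21e-05). DPT (dermatopontin, which binds decorin and collagen fibrils) rose by 1.01 on the log2 scale, COL6A3 (type VI collagen) by 0.92 and COL3A1 (type III collagen) by 0.88. ITIH5, a hyaluronan-binding heavy chain, KIDINS220, a scaffold of neurotrophin receptors, GLG1, a Golgi glycoprotein, CCPG1, a receptor for turnover of the endoplasmic reticulum, P4HA2 and APP, the amyloid precursor protein, completed the 12 named rises, at 0.87 to 1.09. Adjusted for depth, 9 of the 12 were called by edgeR, and ITIH5, KIDINS220 and P4HA2 were not (0.83, 0.58 and 0.67, adjusted p = 0.48, 0.205 and 0.0781).

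**Figure D1:**
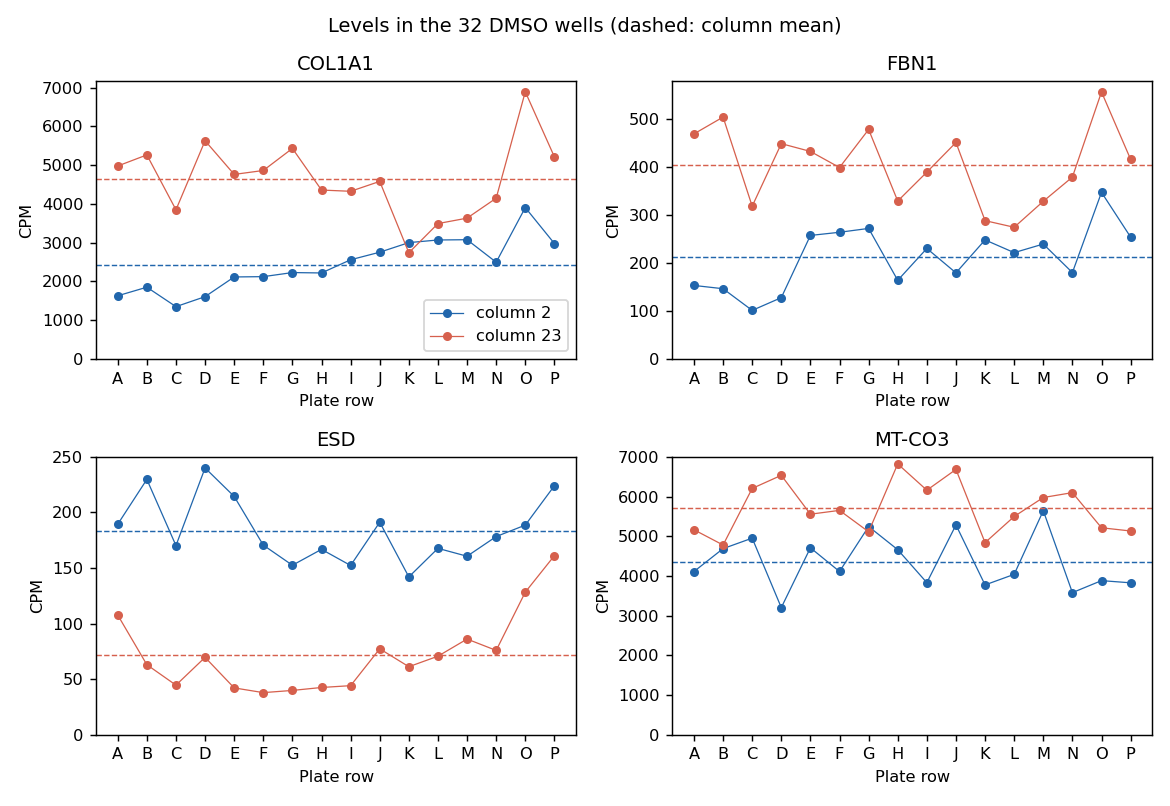
Levels in CPM of COL1A1, FBN1, ESD and MT-CO3 in each DMSO well by plate row A to P, with column 2 in blue, column 23 in red and the column means dashed. COL1A1 lay higher in column 23 in 15 of 16 rows and climbed from row A to row P in column 2, while ESD lay lower in column 23 in 16 of 16 rows.

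Lists around collagen held many rises and no falls. Of all genes tested 3.3% rose and 2.83% fell. Of 25 extracellular matrix genes, all tested, 17 rose and 0 fell, with a median log2 change of 0.65 beside -0.02 over all genes; LUM (lumican), at -0.10 and not called, was the 1 member below 0. Counting every collagen chain gene by its symbol, 13 of 21 rose and 0 fell, and their summed level ran from 5041 to 12569 CPM (median 8098) in column 2 and from 9318 to 21426 CPM (median 15248) in column 23. Among 18 collagen modification genes 9 rose and 0 fell (median 0.48). They included P4HA2, a prolyl hydroxylase subunit (0.89), ADAMTS2, which removes the procollagen N-propeptide (0.78), PLOD3, a lysyl hydroxylase (0.73), and PCOLCE, an enhancer of C-propeptide removal (0.67). Among 13 matrix proteases and inhibitors tested, 9 rose and 0 fell (median 0.39), led by MMP14, a membrane-bound metalloprotease (0.82), MMP2, gelatinase A (0.69), and CTSK, a cathepsin that cuts collagen (0.58). Adjusted for depth, 12 of the 25 matrix genes and 8 of the 21 collagen chain genes were called. So were 4 of the 18 modification genes and 6 of the 13 proteases and inhibitors. All of these were higher in column 23, beside 111 of all 12853 genes tested in that model. ADAMTS2 and PLOD3 were not called (edgeR adjusted p = 0.234 and 0.0734).

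Lists of the secretory pathway and of lysosomes also held rises and no falls. Beside them, 3.3% of all genes tested rose and 2.83% fell, and adjusted for depth 111 and 39 of 12853. Of 16 endoplasmic reticulum chaperones 8 rose and 0 fell (median 0.40). HSPA5, the main chaperone of this compartment, ran from 142 to 213 CPM (median 162) in column 2 and from 143 to 306 CPM (median 234) in column 23, a log2 change of 0.44 ± 0.08 (edgeR adjusted p = 0.000357). Its lowest wells in both columns were level, and column 23 was higher in 15 of 16 rows. PDIA6 and PDIA4, disulfide isomerases, rose by 0.61 and 0.58 and HSP90B1 by 0.48. Of 16 lysosomal genes 10 rose and 0 fell (median 0.49), with GAA, the acid α-glucosidase, at 0.78, PSAP, the precursor of the saposins, at 0.75 and LAMP1, a membrane protein of lysosomes, at 0.60. Adjusted for depth, 1 of the 16 chaperones and 3 of the 16 lysosomal genes were called. HSPA5 was at 0.32 (edgeR adjusted p = 0.152), and PDIA6, PDIA4 and GAA also missed the threshold (edgeR adjusted p = 0.283, 0.155 and 0.124).

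Lipid and growth factor lists rose in part. The shares over all genes tested were 3.3% higher and 2.83% lower, and adjusted for depth 111 and 39 of 12853 genes. Of 9 fatty acid synthesis genes 5 rose and 0 fell, among them the desaturases FADS2 (0.57) and FADS1 (0.52). Of 18 cholesterol genes 4 rose and 0 fell, MSMO1, a demethylase of sterol synthesis, among them (0.33). Of 13 YAP and TGF-beta targets tested 4 rose and 0 fell, including IGFBP3, a binding protein of insulin-like growth factors (0.43). Adjusted for depth, 2 of the fatty acid genes, 0 of the cholesterol genes and 2 of the YAP and TGF-beta targets were called by edgeR; the median of the cholesterol list was 0.33 without the adjustment and 0.02 with it, and MSMO1 was at 0.23 (edgeR adjusted p = 0.421). In the cell division list 0 of 25 genes passed the test in either direction (median -0.05).

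Most mitochondrially encoded mRNAs rose, and most of the ribosomal protein genes and a minority of the nuclear respiratory chain genes fell. Over all genes tested 3.3% rose and 2.83% fell, and adjusted for depth 111 and 39 of 12853 genes. MT-CO3, a core subunit of cytochrome c oxidase, ran from 3203 to 5643 CPM (median 4112) in column 2 and from 4779 to 6821 CPM (median 5603) in column 23, a log2 change of 0.40 ± 0.06 (edgeR adjusted p = 2.59e-05). Of the 13 such mRNAs 9 rose and 1, MT-ND3, fell (means of 7.19 and 2.43 CPM); adjusted for depth 6 were called higher and 1 lower. Of 24 cytosolic ribosomal protein genes 18 fell and 0 rose; the changes were small, with a median of -0.16 and -0.27 for RPS24, the largest. Counting every ribosomal protein gene by its symbol, 53 of 82 fell and 0 rose. Adjusted for depth, 0 of the 24 listed genes were called by edgeR, at a median of -0.05, and 3 of the 82. Of 18 nuclear genes of the respiratory chain 5 fell and 0 rose, led by UQCRB of complex III (-0.67); adjusted for depth 2 were called. ACTB and GAPDH, often used as references, fell by 0.15 and 0.17 on the log2 scale (edgeR adjusted p = 0.000802 and 0.00225). Adjusted for depth neither was called, at -0.08 and -0.05 (edgeR adjusted p = 0.316 and 0.686).

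**Figure D2:**
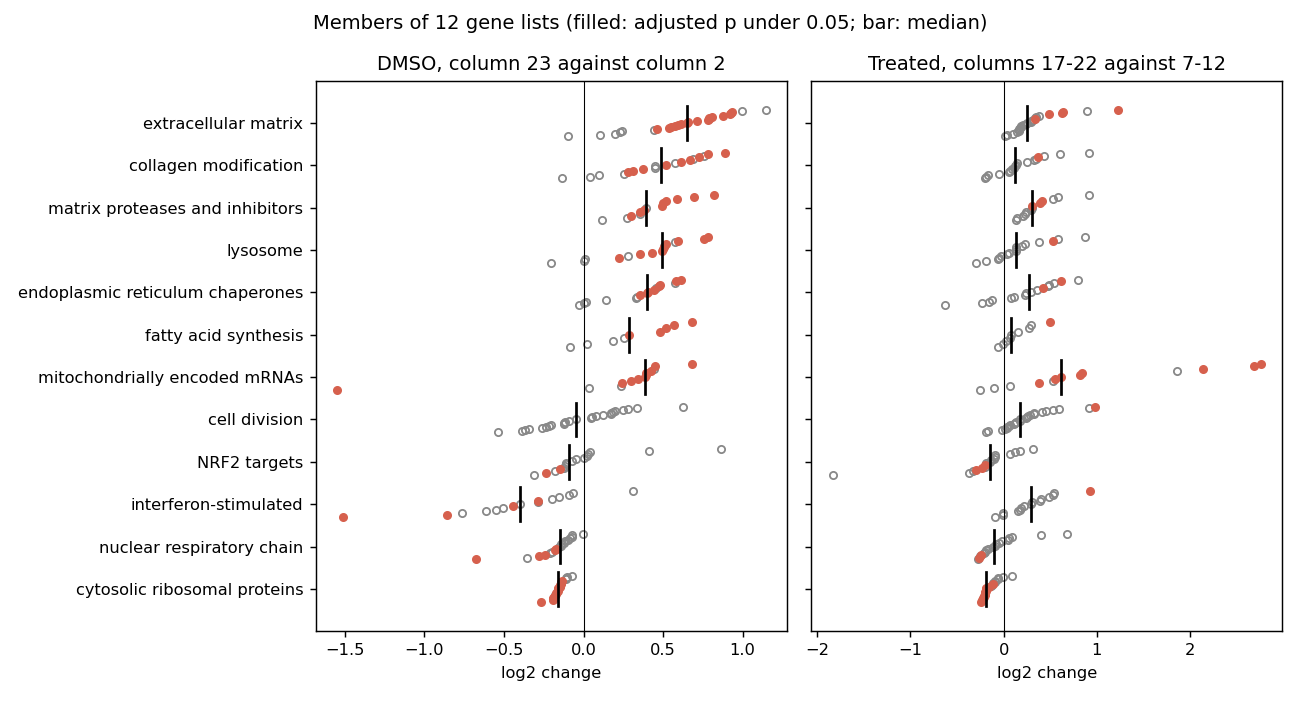
Log2 change of each member of 12 gene lists, in DMSO wells of column 23 against column 2 (left) and in treated wells of columns 17 to 22 against 7 to 12 (right); filled points have an adjusted p under 0.05 and black bars are medians. The matrix list has its median at 0.65 on the left and 0.26 on the right, and the ribosomal protein list lies below 0 on the left for all 24 members.

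Single genes with larger falls belonged to no one list. ESD, an esterase that completes formaldehyde detoxification (chromosome 13, 46771256 to 46797232), ran from 142 to 240 CPM (median 174) in column 2 and from 37.9 to 161 CPM (median 66.4) in column 23. One well of column 23, at 161 CPM, stood above the lowest of column 2, and column 23 was lower in 16 of 16 rows. The log2 change was -1.35 ± 0.16 (2.54-fold, edgeR adjusted p = 1.24e-07), and it was -1.58 with the log2 total count as a covariate. SMIM30, a small membrane protein, ran from 85.8 to 177 CPM (median 112) and from 15.5 to 93.9 CPM (median 45.1), lower in column 23 in 16 of 16 rows (log2 change -1.24 ± 0.19, edgeR adjusted p = 1.8e-05). RPL39, a protein of the large ribosomal subunit, fell by 1.14, EIF3E, a subunit of an initiation factor of translation, by 1.05 and COX7B, a small subunit of cytochrome c oxidase, by 0.86 on the log2 scale. RSL24D1, a factor of ribosome assembly, PPP3R1, the regulatory subunit of calcineurin, MED21, a subunit of Mediator, AP3M1, a subunit of a vesicle adaptor, ISG15, KCTD12 and TBC1D15, a GTPase-activating protein for Rab proteins, completed the 12 named falls, at -1.14 to -0.85. Adjusted for depth, 7 of the 12 were called, and PPP3R1, AP3M1, ISG15, KCTD12 and TBC1D15 were not, at -1.03 to -0.78 (edgeR adjusted p of 0.0592 to 0.236). ISG15, a ubiquitin-like protein induced by interferon, reached 234 CPM in 1 well of column 2, while its medians were 35.1 and 31.2 CPM. Of 15 interferon-stimulated genes tested 4 fell and 0 rose, beside 2.83% and 3.3% of all genes tested. Adjusted for depth 1 interferon-stimulated gene was called lower, beside 39 of all 12853 genes. Over the 16 wells of each column, the genes whose levels were most like those of ESD among 3041 were ZC3H11A (mean of the within-column Pearson r 0.732), PSMA4 (0.625), EIF3E (0.605), RBM17 (0.592) and VGLL3 (0.588). Their high r follows in part from picking the highest of 3041 on these same wells. It is given as a description and was not tested.

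NRF2 targets, which include genes of heme breakdown, iron storage and detoxification, had a median log2 change of -0.09 between the control columns. HMOX1, heme oxygenase 1, ran from 360 to 578 CPM (median 463) in column 2 and from 287 to 475 CPM (median 399) in column 23, lower in 15 of 16 rows (log2 change -0.24 ± 0.06, edgeR adjusted p = 0.00999). NQO1, a quinone reductase, had medians of 420 and 398 CPM and was not called (-0.11 ± 0.05, edgeR adjusted p = 0.295). Of all genes tested 2.83% fell and 3.3% rose. Of 16 NRF2 targets tested 2 fell, HMOX1 and FTL (ferritin light chain, -0.15), and 0 rose. Adjusted for depth neither was called, at -0.19 and -0.07 (edgeR adjusted p = 0.346 and 0.641).

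The called genes also differed in transcript size, by the longest protein-coding transcript of GENCODE 29, for nuclear genes, a comparison chosen after the values were seen. Its median length was 3940 bases for 361 genes that rose, 1990 bases for 317 that fell and 3515 bases for 11008 tested. Across those 11008 genes Spearman's rho of the log2 change was 0.20 with length and 0.10 with the percent of G and C. Between the sides of the treated wells, over 12287 genes, rho was 0.19 with length and -0.24 with G and C. These values are a description, since genes are not independent replicates. The part of transcript length in the changes was not tested.

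The region before the start of the gene is shown for the 2 largest named rises and the 2 largest named falls, since these mark the ends of the difference between the columns. The sequences are the 250 bases upstream of the RefSeq start on build GRCh38.p14, all on the minus strand, at chr1:31704018-31704267 (COL16A1), chr10:7666967-7667216 (ITIH5), chr13:46797162-46797411 (ESD) and chr7:113118555-113118804 (SMIM30). Capitals mark matches on either strand to 7 motifs, each given with the share of 35116 RefSeq windows of this length that hold it. The hypoxia response core was searched as ACGTG, found in 18.5% of windows. The AP-1 site was searched as TGANTCA, found in 6.57%. The heat shock core was searched as GAANNTTC, found in 5.78%, and the CCAAT box in 32.0%. The metal response core was searched as TGCNCNC, found in 49.1%. The sterol response core was searched as TCACNCCAC, found in 0.883%, and the TATA box as TATAAA, found in 10.7%.
COL16A1: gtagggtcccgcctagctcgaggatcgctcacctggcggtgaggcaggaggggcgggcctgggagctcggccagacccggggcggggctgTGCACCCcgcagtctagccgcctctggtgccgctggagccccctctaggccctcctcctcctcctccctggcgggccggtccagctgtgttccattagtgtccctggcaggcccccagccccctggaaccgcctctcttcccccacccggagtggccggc
ITIH5: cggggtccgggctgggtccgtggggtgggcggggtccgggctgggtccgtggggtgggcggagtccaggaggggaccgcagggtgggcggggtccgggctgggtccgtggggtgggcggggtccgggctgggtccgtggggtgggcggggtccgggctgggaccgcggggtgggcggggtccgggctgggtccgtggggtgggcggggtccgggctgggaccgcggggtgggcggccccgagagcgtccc
ESD: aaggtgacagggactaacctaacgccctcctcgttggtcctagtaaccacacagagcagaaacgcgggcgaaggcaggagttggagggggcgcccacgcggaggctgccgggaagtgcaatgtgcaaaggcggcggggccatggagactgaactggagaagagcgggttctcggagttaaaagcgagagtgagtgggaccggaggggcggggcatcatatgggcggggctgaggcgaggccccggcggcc
SMIM30: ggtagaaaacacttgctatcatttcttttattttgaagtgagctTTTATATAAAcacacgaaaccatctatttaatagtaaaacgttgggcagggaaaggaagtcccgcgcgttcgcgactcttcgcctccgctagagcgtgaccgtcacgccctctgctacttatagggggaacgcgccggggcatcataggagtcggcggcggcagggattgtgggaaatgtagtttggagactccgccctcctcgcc
COL16A1 held 1 match to the metal response core, and SMIM30 held 2 overlapping matches to the TATA box. The windows of ITIH5 and ESD held none of these letters, and the 4 windows had 73.2%, 82.8%, 64.8% and 51.6% G and C in the order printed.

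Levels of some matrix genes followed the plate rows in column 2. Over both columns 0 of 12370 genes, 0%, had a trend along rows A to P by edgeR (514 at an unadjusted p under 0.05; 0 by DESeq2's Wald test). In column 2 alone 9 of 11753 genes, 0.0766%, were called, all 9 rising toward row P: COL1A1, COL1A2, COL3A1, COL6A1, COL6A2, FBLN2 (fibulin 2), THBS2 (thrombospondin 2), C1R (a protease of complement) and PDGFRB (a receptor of platelet-derived growth factor). They are named because only these 9 were called, after their values were seen. COL1A1 averaged 1892 ± 331 CPM in rows A to H and 2981 ± 437 CPM in rows I to P of column 2 (SD, n = 8 each), a slope of 0.08 log2 per row (edgeR adjusted p = 3.24e-05). In column 23 it averaged 4890 ± 582 and 4378 ± 1261 CPM, and along that column 0 of 12193 genes were called by edgeR (400 at an unadjusted p under 0.05). The column change of COL1A1 was thus 1.38 in rows A to H and 0.55 in rows I to P. The difference of slopes itself did not pass the test for any gene: 0 of 12853, 0%, by edgeR (655 at an unadjusted p under 0.05), with an adjusted p of 0.134 for COL1A1. Of the 372 rises 282 were larger in rows A to H than in I to P, as were 229 of the 319 falls. These counts are a description of genes picked on the same wells. They were not tested, and no share over all genes was taken.

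The number of genes detected followed the rows of column 2 as well, while the total count did not pass the test. The number of genes detected rose toward row P there (Pearson r = 0.827, rho = 0.824, permutation p = 5e-05 and 0.00015, adjusted p = 0.0003 over 6 relations; r = 0.832 without the 2 outermost rows), and in column 23 r was 0.01 (permutation adjusted p = 0.985). For the total count r was 0.521 in column 2 (rho = 0.503, permutation p = 0.0378, adjusted p = 0.113). With the log2 total count as a covariate 0 of 13200 genes had a row trend over both columns by edgeR (604 at an unadjusted p under 0.05). For column 2 alone no such fit was made, so that the part of depth in its trend was not tested. Rows A and P, the outer rows, differed from rows B to O in 0 of 13200 genes, 0%, by edgeR (628 at an unadjusted p under 0.05; 3 by DESeq2's Wald test).

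Treated wells on either side gave a comparison in other wells. Between columns 17 to 22 and 7 to 12, with dose in the model, 302 of 12791 genes, 2.36%, were called: 137 higher on the right, 1.07%, and 165 lower, 1.29%. Of the 691 genes called in DMSO, 560 (81.0%) had the same sign here, beside 58.6% of the 11258 genes tested in both. Of these, 93 genes were called with the same sign and 14 with the opposite one. The main fit of the treated sides had no term for depth. Their median total counts also differed, at 6129856 on the left and 6987872 on the right. With counts thinned to the lowest total, 291 of 12193 genes were called, 135 higher on the right and 156 lower. The part of depth in the shared signs was not tested. For the 372 rises the median log2 change was 0.55 in DMSO and 0.21 in treated wells, and for the 319 falls -0.22 and -0.11. COL3A1 rose in both (0.64 in treated wells, edgeR adjusted p = 0.000334, higher in 12 of 12 matched wells), and COL1A1 was at 0.34 and not called (edgeR adjusted p = 0.0682). GAPDH fell by 0.26 on the log2 scale, lower in 12 of 12. In the matrix list 5 of 25 rose and 0 fell, in the ribosomal protein list 15 of 24 fell and 0 rose, and in the mitochondrial list 8 of 13 rose and 0 fell.

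**Figure D3:**
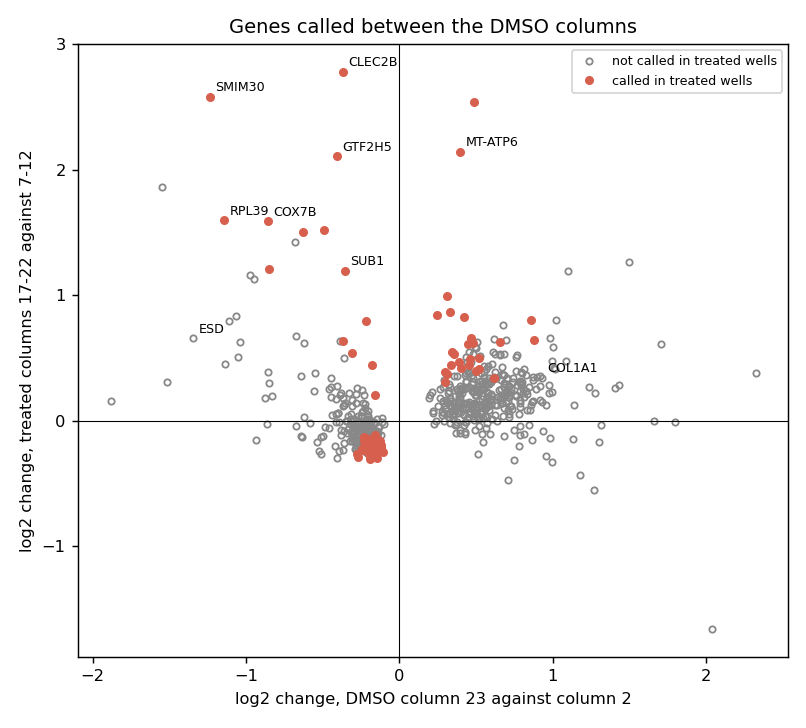
Log2 change of each gene called between the DMSO columns (x axis) against its log2 change between treated wells of columns 17 to 22 and 7 to 12 (y axis), with filled points for genes called in the treated wells. Most points lie in the quadrants of equal sign, and SMIM30, RPL39, COX7B, GTF2H5, CLEC2B and SUB1 lie at upper left, lower in column 23 and higher on the right among treated wells.

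The 14 genes of opposite sign all fell in column 23 and rose on the right of the treated wells. They were RAC1, RPL34, SKP1, GDI2, NUCKS1, SUB1, TBC1D15, RANBP2, ATP5MJ, COX7B, RPL39, GTF2H5, SMIM30 and CLEC2B. Between the DMSO columns, RAC1, RPL34, NUCKS1, TBC1D15 and CLEC2B were not called when adjusted for depth. GTF2H5, a small subunit of the transcription and repair factor TFIIH, ran from 239 to 378 CPM (median 297) in column 2 and from 167 to 262 CPM (median 224) in column 23. In treated wells it ran from 29.2 to 79.6 CPM (median 47.6) on the left and from 171 to 281 CPM (median 206) on the right. The DMSO columns overlapped and the treated sides did not, with log2 changes of -0.41 and 2.11 (edgeR adjusted p = 1.04e-05 and 6.14e-12). SUB1, a transcriptional coactivator, followed the same pattern, lower in column 23 in 16 of 16 rows (-0.36) and higher on the right of the treated wells (1.20). SMIM30 had medians of 111 CPM in column 2, 6.89 in columns 7 to 12, 33.5 in columns 17 to 22 and 44.5 in column 23, on a common scaling of all 56 wells. COX7B followed the same order, at 160, 15.1, 35.8 and 77.8 CPM. ESD had medians of 172, 33.6, 42.7 and 65.3 CPM, so that column 2 stood above the other 3 positions. The ranges of ESD in column 2 (139 to 237 CPM) and in columns 7 to 12 (14.4 to 44.4 CPM) did not overlap; position and treatment cannot be told apart in that step.

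Another set of genes was low in columns 7 to 12 alone. MT-ND2, a subunit of complex I, ran from 97.2 to 185 CPM (median 134) in column 2, from 7.36 to 29.5 (median 18.2) in columns 7 to 12, from 57.7 to 182 (median 123) in columns 17 to 22 and from 127 to 182 (median 164) in column 23. The treated sides did not overlap (log2 change 2.76 ± 0.18, edgeR adjusted p = 7.05e-11), while the DMSO columns overlapped and missed the threshold (0.24, edgeR adjusted p = 0.051). ACKR4, an atypical chemokine receptor, had medians of 188, 18.7, 123 and 200.1 CPM in the same order, and CLEC2B, a C-type lectin, had medians of 96.5 CPM in column 2, 6.93 in columns 7 to 12 and 52.1 in columns 17 to 22. MT-CO3, from the same mitochondrial genome as MT-ND2, had medians of 4050, 5091, 5175 and 5508 CPM. FAP, a surface protease of fibroblasts that rose in both sets of wells, ran from 8.45 to 48.6 CPM on the left and from 72.2 to 161 CPM on the right of the treated wells (log2 change 2.54, edgeR adjusted p = 1.54e-09), beside 67.0 to 163 CPM in column 2 and 99.7 to 225 CPM in column 23 (0.49, edgeR adjusted p = 0.00631, and 0.25 with an adjusted p of 0.592 when adjusted for depth). GTF2H5, SUB1 and FAP were named after their values were seen. A model of both sets of wells, chosen after the values were seen, called a difference of the right-against-left change in 148 of 14033 genes, 1.05%.

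**Figure D4:**
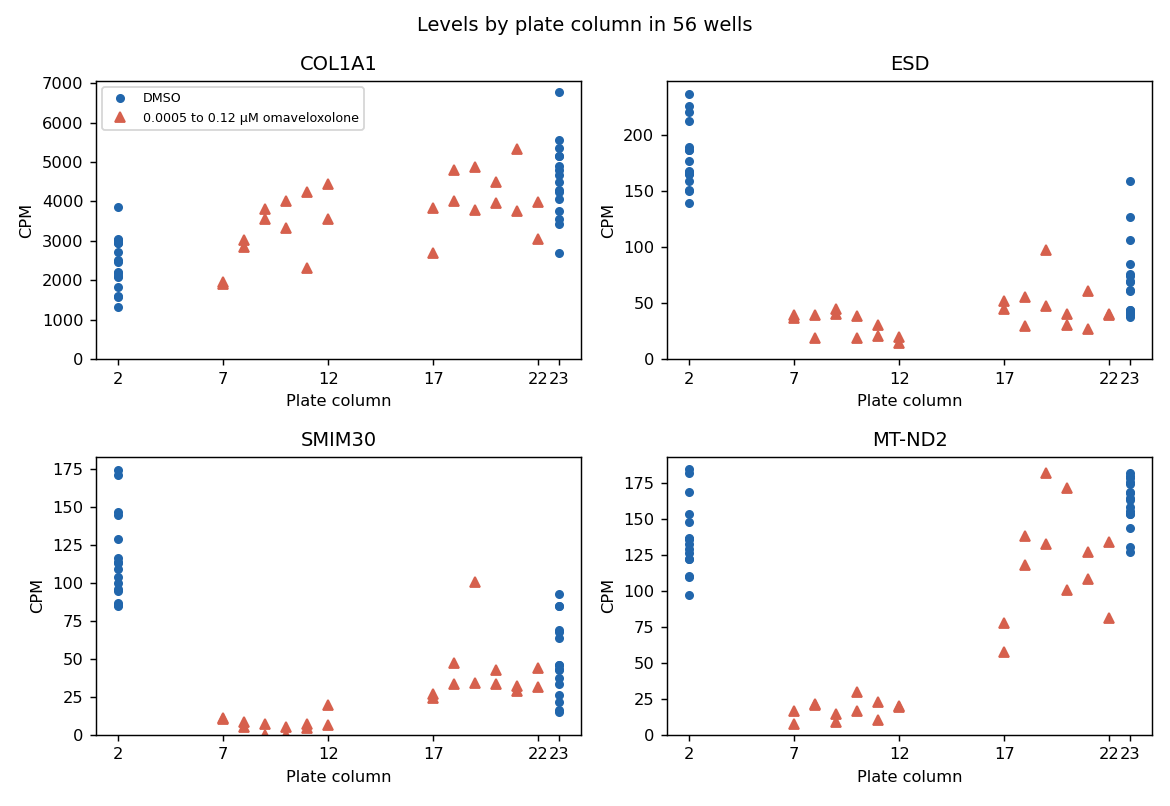
Levels in CPM of COL1A1, ESD, SMIM30 and MT-ND2 by plate column in the 32 DMSO wells (circles) and the 24 wells at 0.0005 to 0.12 µM (triangles). MT-ND2 was low in columns 7 to 12 alone, whereas ESD and SMIM30 were highest in column 2.

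Pairs of genes were followed from well to well within each column, so that the difference between columns does not enter. Of 29 listed pairs, 7 passed the test in column 2 and 7 in column 23 (Pearson r, permutation p adjusted over 58 tests); by Spearman's rho 2 and 4 passed. COL1A1 and COL1A2, the chains of type I collagen, had r = 0.946 in column 2 and 0.958 in column 23 (rho 0.912 and 0.932; permutation adjusted p = 0.000145 in both, from p = 1e-05, the smallest the permutations can give). COL6A1 and COL6A2, chains of type VI collagen, had r = 0.944 and 0.969, and r stayed at 0.929 and 0.933 without the 2 wells farthest from the median of COL6A1. With the linear row trend removed, r in column 2 was 0.886 for the type I pair and 0.816 for the type VI pair. COL3A1 with COL5A2, at 0.674 in column 2, was then at 0.244. With the log2 total count removed instead, the 3 values were 0.949, 0.933 and 0.639. Other pairs passed in one column: SPARC with FN1 and FTL with FTH1, the ferritin chains, in column 23 (r = 0.865 and 0.820, rho 0.791 and 0.776, permutation adjusted p = 0.000232 and 0.00145), where column 2 gave 0.404 and 0.178. The differences between columns were not tested. HMOX1 and NQO1 had r = 0.187 and -0.157, and CXCL8 with CXCL1 was left out because CXCL8 had no counts in DMSO wells.

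The 20 pairs with the highest r in column 2 had r of 0.893 to 0.970 there, which their choice fixes. In column 23, which did not enter the choice, r ran from -0.267 to 0.951 with a median of 0.466, and 15 of 20 were above 0. Of all pairs of the 3041 genes, 51.15% were above 0 in column 23. Of the 892 pairs with r above 0.8 in column 2, 72.31% were above 0 in column 23 (median r 0.266). Among the 20 pairs 7 passed the test (permutation p adjusted over 20). The 7 were COL1A1 with COL6A2 (r = 0.932), DCN with CTSK (0.915), C1R with COL1A2 (0.951), CXCL12 with ITM2B (0.654), TMSB10 with RPS6 (0.711), PCOLCE with HEG1 (0.596) and CHCHD2 with RPLP2 (0.863). For CXCL12 with ITM2B r was 0.307 without the 2 wells farthest from the median of CXCL12, so that it rests on those wells. Pairs of matrix genes were thus among those with a high r in both columns, and MAP7D3 with RTL8A, at 0.923 in column 2, was at -0.143 in column 23. As a description, the mean r between members was 0.350 and 0.562 for the matrix list in columns 2 and 23, 0.454 and 0.735 for ribosomal proteins and 0.573 and 0.519 for mitochondrial mRNAs, beside 0.01 and 0.01 over all 3041 genes. All genes of a well share its depth and its scaling.

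**Figure D5:**
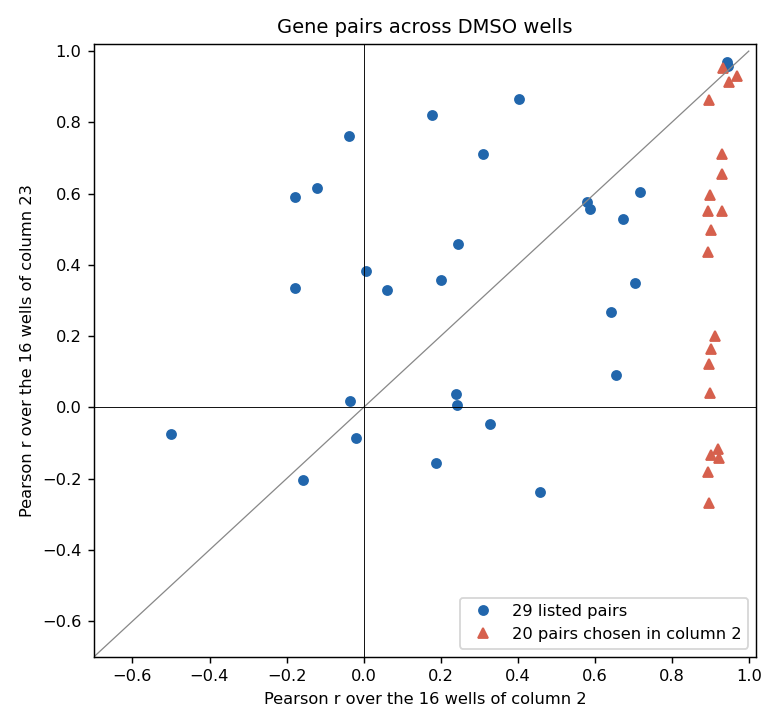
Pearson r of gene pairs over the 16 wells of column 2 (x axis) and of column 23 (y axis), for 29 listed pairs (circles) and the 20 pairs chosen for the highest r in column 2 (triangles). COL1A1 with COL1A2 and COL6A1 with COL6A2 sit at the upper right with r above 0.9 in both columns. The chosen pairs spread from -0.267 to 0.951 in column 23.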

How the data were processed

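The deposited values were whole-number counts per gene and well. The submitters' processing notes name kallisto, bustools and GRCh38; versions, annotation and any collapsing of molecular identifiers are not given in the sources used here, so a count may be a read. Symbols and positions come from GENCODE 29 (23078 of 23170 genes matched, 21289 with a symbol); of the listed genes, AIF1, CD3E, CLDN5, KRT1, KRT14, KRT5, SOX10 and TYR were not analysed here. After the values were seen, 33 ribosomal RNA-like pseudogenes were left out, 2.94% of the counts of the DMSO wells. The members, gene lists and tests were chosen with earlier results of these data known.

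Columns, rows, edge rows and the sides of the treated wells were each fitted over all genes with edgeR 4.0.16 in R 4.3.3 (TMM, filterByExpr with a minimum count of 10, robust quasi-likelihood test, Benjamini-Hochberg adjustment, threshold 0.05). The number of genes kept by that filter differs between models. The SE was derived from the F value. Fits and correlation tests were tested on simulated data. DESeq2 1.42.0 gave alternative size factors and the Wald test. On counts simulated for the column comparison the Wald test made false calls at more than its nominal rate and edgeR did not. Correlations used log2 CPM with a prior count of 2 and 100000 permutations, with Python 3.11.15, NumPy 2.4.6 and SciPy 1.17.1, and pairs and the genes most like ESD were chosen among genes with a mean of 50 CPM or more. Genes were named by rule: the 12 largest rises and falls among called genes with a mean of 20 CPM that moved the same way in rows A to H and I to P, the 5 largest changes in each direction between the sides of the treated wells, up to 4 called members of each of 27 lists and of 6 marker lists, and COL1A1, COL1A2, HSPA5, MT-CO3, ACTB, GAPDH, HMOX1 and NQO1; genes outside it, such as VIM, CD68, LUM and MT-ND3, were named after their values were seen. Some genes named by this rule are not reported here. Alternatives were other scaling, filter, test and thinned counts, subsets of rows, doses and wells, a block for the row, and the total count as a covariate.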

Additional observations from a re-analysis of the deposited data

Results flagged for a closer look

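The change from left to right differed between treated and DMSO wells for the genes below, by an interaction term of edgeR over 56 wells that was added after the data were seen (adjusted p under 0.05 for each). Values are the log2 change in treated wells minus that in DMSO wells. Genes lower in column 23 with a difference above 0 were ESD (2.01), SMIM30 (3.79), RPL39 (2.74), RSL24D1 (1.59), PPP3R1 (1.91), EIF3E (1.57), MED21 (2.13), AP3M1 (2.08), COX7B (2.45), KCTD12 (1.16), TBC1D15 (2.06), HSPE1 (0.59), RPS24 (0.27), UQCRB (1.36) and CLEC2B (3.14). Genes with a DMSO change above 0 and a larger one in treated wells were MT-ATP6 (1.75), ACKR4 (2.74), MTATP6P1 (2.49) and MT-ND2 (2.53). Genes higher in column 23 with a smaller or opposite change in treated wells were COL16A1 (-1.01), GLG1 (-0.76), FBN1 (-0.78), COL6A3 (-0.74), ADAMTS2 (-0.97), MMP2 (-0.55), PSAP (-0.55), COL1A2 (-0.50), PDGFRB (-0.60), MT-CO3 (-0.49), GALNT16 (-0.77) and SLIT3 (-0.76). The treated wells lay in rows K and L and in other columns than the DMSO wells, so that treatment and position cannot be told apart in these differences.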

How the results depend on the processing

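The column comparison, at 691 calls, gave 1122 with a filter of 1 count in 3 wells, 333 with rows A to H alone, 59 with rows I to P alone and 150 with the log2 total count as a covariate; fewer wells enter the row subsets, and the number of genes tested differs. The row trend, at 0 calls, gave 150 with the looser filter and 9 in column 2 alone. The difference of slopes, at 0, gave 138 with that filter and 2 without rows A and P. The edge comparison, at 0, gave 36 with that filter, 3 by DESeq2's Wald test and 2 with rows A, B, O and P as the edge. The sides of the treated wells, at 302, gave 522 by the Wald test (which exceeded its nominal rate of false calls on counts simulated for the columns), 29 at the 3 lowest doses, 22 in row K and 143 in row L. The cause was not tested. Among named genes, direction reversed for NQO1 in rows I to P alone (0.0188), RBM17 in rows I to P alone (0.13), ACKR4 with the total count as a covariate (-0.0634), EEF1AKMT2 without rows A and P (-0.0277), with the covariate (-0.0776) and without K23 and O2 (-0.0023), and MRPS2 in rows A to H alone (0.0136) and with the covariate (0.0134); none of these 5 was called between the columns.

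Plate row as a replicate block gave 585 calls for the columns, and dose by row as a block 294 for the sides of the treated wells. The row did not pair the wells: wells of 1 row had correlations of -0.11 to 0.22, and 1 of 16 wells of column 2 correlated best with its own row. Other scaling by DESeq2 size factors gave 669, thinning to the lowest total 670.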
